A study of Mus musculus with 2 samples.

Results

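The genes studied here are 36 enzymes, lipid droplet proteins and regulators that build fatty acids and join them into phospholipids and triglycerides. They were chosen by symbol, from a named list, among the 15113 genes listed in at least 1 of 2 deposited expression tables. All 36 were listed in the tumour-bearing library and all but Chkb in the control library, where a missing gene was taken as 0. Of the 36, 33 reached 1 RPKM (reads scaled to transcript length and to the library's total) in at least 1 library and were compared. Elovl6, Agpat4 and Pcyt1b stayed under that level in both libraries, while Chkb reached it through the tumour-bearing library alone and Dgat2 through the control library alone. A gene that passes through its high library alone had to differ, so Chkb and Dgat2 lend no support to the counts that follow.

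RNA came from CD45-negative, Sftpc-positive epithelial cells, sorted by flow cytometry from digested lungs of C57BL/6 mice aged 6 to 8 weeks. Sftpc encodes surfactant protein C, the product that defines alveolar type 2 cells, the surfactant-secreting cells of the alveolus. The control library came from wild-type mice without a tumour. The tumour-bearing library came from mice given 1000000 luciferase-labelled LLC cells (a mouse lung carcinoma line) under the skin of the back, a model in which metastases reach the lung spontaneously. Both groups share the strain, age range and sort, and the comparison asks how lung epithelium differs in a host with a distant tumour. The time after injection, the number of mice and whether mice were pooled were not stated in the labels or files. The labels do not say how Sftpc was detected.

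With 1 library per group there was no replicate check, and no p-value could be computed. Instead, a gene was called higher or lower when it differed by at least 2-fold on the log2(RPKM + 1) scale, which understates the change of low genes. Folds are given as the direct ratio of one RPKM to the other, and paired values stand in the order control, then tumour-bearing. Each fold of a single gene read in both libraries carries a 95% interval (exact, Clopper-Pearson) from read numbers recovered from the RPKM. That interval covers counting error between these 2 libraries only. Intervals of shifts in the ratio of 2 genes use the same reads, with a normal approximation on the log scale. The libraries held an estimated 5335352 (control) and 5387114 (tumour-bearing) reads, so depth was nearly equal.

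Fatty acid synthesis starts from citrate: ATP citrate lyase releases acetyl-CoA, acetyl-CoA carboxylase turns it into malonyl-CoA, and fatty acid synthase assembles palmitate. Desaturases then insert double bonds and elongases add carbons, and acyl-CoA synthetases activate the fatty acids for use. Acyltransferases load them onto glycerol phosphate, lipins remove the phosphate to give diacylglycerol, and the choline and ethanolamine branches add head groups to it. In alveolar type 2 cells this route feeds surfactant, which is mostly phospholipid and is rich in dipalmitoyl phosphatidylcholine.

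The list as a whole was near the middle of all genes, with few members past 2-fold in either direction. Of the 33 members compared, 2 were at least 2-fold higher in the tumour-bearing library (Lpin2 and Chkb), against a background of 9.38% of the 12288 genes compared. Lower by that rule were 4 members (Elovl1, Fads1, Fads2 and Dgat2), against a background of 6.53%, and 27 were within 2-fold. The median member log2 ratio was -0.01, with 16 members above 0 and 17 below, and the median over all genes compared was 0.06. Scaling by an upper quartile, which shifts all genes by 0.10, gives 1 higher and 5 lower: Lpin2 (0.97) then misses the rule and Acly (-1.03) passes it.

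Of the 33 members compared, 21 had a direct ratio within 1.5-fold, a measure not summarised over all genes. On the log2(RPKM + 1) scale, 4 members were at least 1.5-fold higher and 8 lower, against 19.4% and 16.1% of all genes. The counting interval lay wholly above 1 for 15 members and wholly below 1 for 15, where the background was 33.1% and 26.5% of genes. It included 1 for Scd2, Acsl3 and Pcyt1a. The 15 above include Chkb, which had 0 control reads and so has a lower limit only. Summed over all 36, the members' RPKM came to 6862 and 5662, or 1.34% and 1.15% of all RPKM, and without Scd1 the sums were 3234 and 2692.

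By the RefSeq annotation of GRCm38.p6, the assembly that mm10 denotes, Lpin2 (GeneID 64898) lies at chr17:71183532-71249818 and Chkb (GeneID 12651) lies at chr15:89426349-89429927. Among the lower members, Elovl1 (GeneID 54325) lies at chr4:118426874-118432953. The neighbours Fads1 and Fads2 lie on 1 chromosome, where Fads1 (GeneID 76267) lies at chr19:10182877-10196874 and Fads2 (GeneID 56473) lies at chr19:10062765-10101503. The last of the 6 is Dgat2 (GeneID 67800), at chr7:99153663-99182713.

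**Figure D1:**
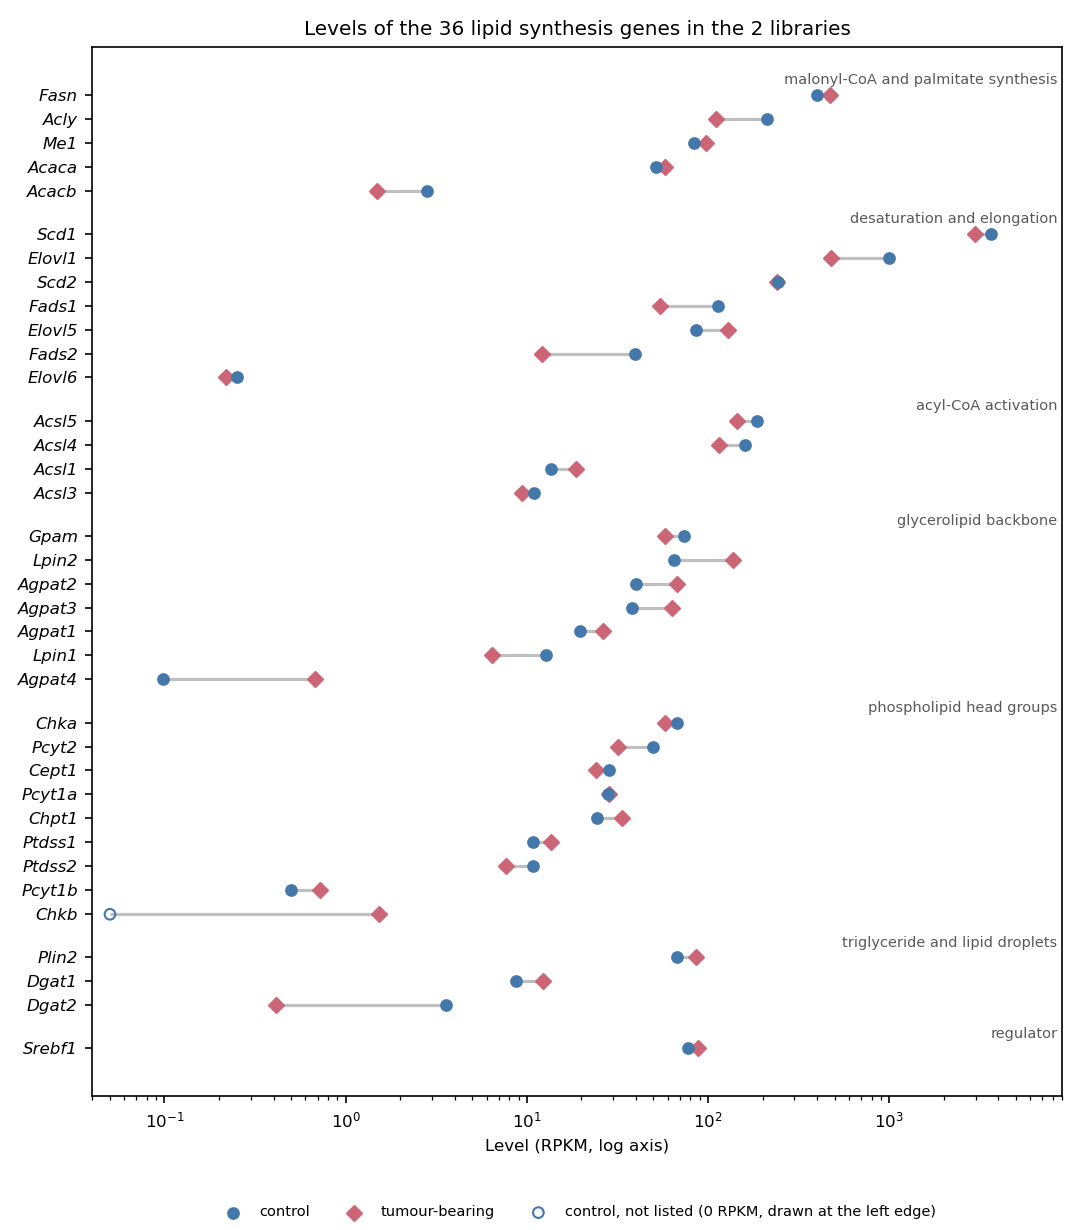
Level of each of the 36 genes in RPKM (log axis) in the control and the tumour-bearing library, grouped by role, with 1 point per gene and library and values of 0 drawn at the left edge. Scd1 had the highest level in both libraries (3628 and 2970 RPKM), and Fads2 and Dgat2 show wide gaps between their points.

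Promoter sequences are shown for 4 members that carry the differences described below: Acly, at the entry of the pathway, Elovl1 and Fads2, which were lower, and Lpin2, which was higher. Each window runs from 250 bases before to 50 after a gene start in RefSeq, on the GRCm38.p6 build and on the gene's own strand. Capitals mark matches, on either strand, to the CCAAT box, the E-box CACGTG or the sterol regulatory element core TCACNCCAC, the last being a sequence through which SREBP factors act. These 4 were chosen after their values were seen.
Acly, chr11:100527951-100528250, minus strand: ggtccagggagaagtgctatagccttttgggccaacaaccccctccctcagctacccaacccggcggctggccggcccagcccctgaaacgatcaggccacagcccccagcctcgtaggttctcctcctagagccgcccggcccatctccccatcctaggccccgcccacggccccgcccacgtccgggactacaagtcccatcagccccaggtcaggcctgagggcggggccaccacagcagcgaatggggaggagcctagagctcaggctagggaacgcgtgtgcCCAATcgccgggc
Elovl1, chr4:118427843-118428142, plus strand: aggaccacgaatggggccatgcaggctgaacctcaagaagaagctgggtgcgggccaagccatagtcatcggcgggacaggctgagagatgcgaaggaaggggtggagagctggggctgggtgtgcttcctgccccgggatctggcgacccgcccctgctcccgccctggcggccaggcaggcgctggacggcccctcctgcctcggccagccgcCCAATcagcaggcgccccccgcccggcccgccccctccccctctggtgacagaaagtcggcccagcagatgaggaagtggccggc
Fads2, chr19:10101454-10101753, minus strand: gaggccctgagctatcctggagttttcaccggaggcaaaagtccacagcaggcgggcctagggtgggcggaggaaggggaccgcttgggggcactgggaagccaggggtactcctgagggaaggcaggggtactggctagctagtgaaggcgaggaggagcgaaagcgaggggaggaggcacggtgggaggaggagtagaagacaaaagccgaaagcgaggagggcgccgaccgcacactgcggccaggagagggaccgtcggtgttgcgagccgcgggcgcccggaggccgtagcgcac
Lpin2, chr17:71183282-71183581, plus strand: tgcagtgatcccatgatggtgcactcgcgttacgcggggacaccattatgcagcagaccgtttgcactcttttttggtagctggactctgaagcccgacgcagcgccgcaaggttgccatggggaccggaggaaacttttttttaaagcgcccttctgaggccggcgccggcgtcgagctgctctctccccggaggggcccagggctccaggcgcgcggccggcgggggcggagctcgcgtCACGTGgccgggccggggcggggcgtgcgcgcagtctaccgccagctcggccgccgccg

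The Acly window holds a CCAAT match 37 bases after the start and the Elovl1 window 1 that lies 35 bases before it. The Lpin2 window holds an E-box 9 bases before the start, and the Fads2 window holds none of the 3 motifs. The Elovl1 window belongs to 1 of 2 starts and lies downstream of the gene's first annotated base, and the Lpin2 window to 1 of 3 starts. Windows were found for 29 of the 36 members, and a gene was counted as holding a motif when any of its windows did, which favours genes with several starts. By that count CCAAT was in 20 of the 29 (69.0%, with Lpin2 through a window not printed), against 41.1% of all 27025 genes with a window and 42.3% of the 9791 compared ones. The sterol element core was in 2 (6.90%, Acsl1 and Pcyt1a), against 1.44% of all genes and 1.38% of the compared ones. The E-box was in 3 (10.3%, Elovl5, Lpin2 and Plin2), against 8.09% and 11.7%. These motifs are descriptions of the letters: members within 2-fold, such as Fasn, hold CCAAT as well as Elovl1.

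Among the 5 genes that make palmitate, none passed the 2-fold rule, and Acly, the first enzyme, came nearest to it with a log2 ratio of -0.93. Acly, which makes cytosolic acetyl-CoA, was at 213 and 111 RPKM, 1.91-fold lower (interval 1.82 to 2.004). Acaca, the cytosolic acetyl-CoA carboxylase that makes malonyl-CoA, was at 51.9 and 57.9 RPKM, 1.12-fold higher (1.06 to 1.18). Fasn, which assembles palmitate, was at 399 and 473 RPKM, 1.19-fold higher (1.16 to 1.21). Acly was thus the one of these 3 below its control level.

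The shift within this group is clearest in ratios between members, which do not depend on how the libraries are scaled. Fasn to Acly was 1.87 and 4.25 in RPKM, a shift of 2.27-fold (2.16 to 2.38). Acaca to Acly shifted likewise, by 2.13-fold (1.99 to 2.29). Me1, the malic enzyme that supplies NADPH for synthesis, was at 84.2 and 97.2 RPKM, 1.15-fold higher (1.08 to 1.24). Acacb, the mitochondrial carboxylase whose malonyl-CoA restrains fatty acid oxidation, was at 2.82 and 1.49 RPKM, 1.9-fold lower (1.41 to 2.59). Acacb was far scarcer than Acaca in both libraries, on 128 and 68 reads. The 5 genes summed to 750 and 741 RPKM. The pairs of genes whose ratios are given here and below were picked with the values known.

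Desaturation and elongation, with 6 members compared, held 3 of the 4 lower members, 2 of them the neighbours Fads1 and Fads2. Of 8 further genes of this step that were compared, 0 were lower, and over all genes 6.53% were. Elovl1, which elongates saturated and monounsaturated fatty acids to very long chains, was at 1002 and 480 RPKM, 2.09-fold lower (2.01 to 2.16). It moved from rank 29 to rank 99 among all genes of its library. Fads1 and Fads2 are the front-end desaturases that turn dietary linoleic and linolenic acids into long polyunsaturated ones. Fads1 was at 114 and 54.4 RPKM, 2.09-fold lower (1.94 to 2.26). Fads2 was at 39.4 and 12.2 RPKM on 317 and 99 reads, 3.23-fold lower (2.57 to 4.09).

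The other desaturases and elongases stayed within 2-fold or were nearly unread. Scd1, which introduces the double bond of oleic and palmitoleic acids, ranked 11 in both libraries, at 3628 and 2970 RPKM, 1.22-fold lower (1.21 to 1.23). Scd2, its paralog, was at 242 and 240 RPKM, 1.01-fold lower (0.976 to 1.04). Elovl5, which elongates polyunsaturated fatty acids, was at 86.3 and 129 RPKM, 1.497-fold higher (1.39 to 1.61). Elovl6, which elongates palmitate to stearate, was nearly unread, at 0.252 and 0.218 RPKM on 8 and 7 reads. The 7 genes summed to 5112 and 3887 RPKM, and most of both sums was Scd1.

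The makeup of the families differed accordingly, again independent of library scaling. Elovl1 made up 91.6% of the summed RPKM of the 7 elongases in the control library and 78.0% in the other, and Elovl5 7.89% and 20.98%. Elovl5 to Elovl1 shifted 3.12-fold (2.89 to 3.38). In the FADS family, Fads3, which is not among the 36 and was at 54.7 and 69.8 RPKM, went from 26.3% to 51.2% as Fads1 went from 54.7% to 39.9% and Fads2 from 18.9% to 8.94%. Fads1 to Fads2 itself shifted 1.54-fold (1.218 to 1.959), as the fold was wider for Fads2 than for Fads1. Scd1 held 93.7% and 92.5% of its family.

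Scd1 and Scd2 are paralogs, and reads from the short stretches they have in common cannot be told apart. Of the 50-base stretches of their GENCODE M21 transcripts, 4.66% in Scd1 and 4.01% in Scd2 also occur in another gene. The main match of Scd1 was Scd3 (3.49%), at 0.324 and 0.214 RPKM, and that of Scd2 was Scd1 (2.68%). The longest stretch common to Scd1 and Scd2 is 147 bases, starting at base 823 of the 4832-base Scd1 transcript and base 1246 of the 5455-base Scd2 transcript, both on chromosome 19. It is printed to show where the pair cannot be separated.
Scd1 and Scd2, common stretch: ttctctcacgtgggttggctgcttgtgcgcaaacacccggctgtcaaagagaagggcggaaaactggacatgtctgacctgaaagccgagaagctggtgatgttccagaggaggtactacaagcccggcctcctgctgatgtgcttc

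The 4 acyl-CoA synthetases, which activate long-chain fatty acids, were all within 2-fold. Acsl5 was at 187 and 144 RPKM, 1.30-fold lower (1.24 to 1.37). Acsl4, which prefers arachidonic acid, was at 160 and 115 RPKM, 1.39-fold lower (1.32 to 1.45). These 2 made up most of the family, and the ratio between them shifted by 0.94 (0.877 to 1.01), an interval that includes 1. Acsl1 was the member above 0, at 13.6 and 18.7 RPKM, 1.37-fold higher (1.17 to 1.6). Acsl3, an endoplasmic reticulum and lipid droplet form, was at 10.9 and 9.40 RPKM, 1.16-fold lower (0.957 to 1.41). The 4 summed to 372 and 287 RPKM.

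Glycerolipid assembly held the other clear difference, a higher Lpin2. Lipins are phosphatidic acid phosphatases that produce diacylglycerol. Lpin2 was at 65.1 and 138 RPKM, 2.12-fold higher (2.01 to 2.24), on 2007 and 4302 reads. Lpin1 went the other way, at 12.8 and 6.43 RPKM, 1.99-fold lower (1.67 to 2.38), just inside the rule with a log2 ratio of -0.90. Lpin2 to Lpin1 was therefore 5.08 and 21.5, a shift of 4.23-fold (3.53 to 5.07). Lpin2 held 79.0% and 93.2% of the RPKM of the 3 lipins.

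The acyltransferases before this step stayed within 2-fold, with ratios on both sides of 1. Gpam, the mitochondrial enzyme that starts glycerolipid synthesis, was at 73.6 and 58.2 RPKM, 1.26-fold lower (1.17 to 1.37). The AGPAT enzymes add the next acyl chain to make phosphatidic acid. Agpat2 was at 40.1 and 67.7 RPKM, 1.69-fold higher (1.47 to 1.94). Agpat3 was at 38.0 and 63.2 RPKM, 1.66-fold higher (1.51 to 1.83). Agpat1 was at 19.8 and 26.4 RPKM, 1.33-fold higher (1.12 to 1.59). The ratio of Agpat2 to Agpat3 shifted by 1.01 (0.860 to 1.19). Agpat5, of the same family but not among the 36, was at 5.83 and 3.88 RPKM, 1.502-fold lower (1.12 to 2.02). Agpat4 was at 0.0981 and 0.680 RPKM, on 1 and 7 reads, too few to place. Exons of Agpat2 overlap those of Egfl7, an endothelial gene on the opposite strand, by 64 bases. Egfl7 was itself at 7.42 and 19.2 RPKM, and since the strand setting of the counting is not given, reads in the overlap cannot be told apart. The 7 backbone genes summed to 250 and 361 RPKM.

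**Figure D2:**
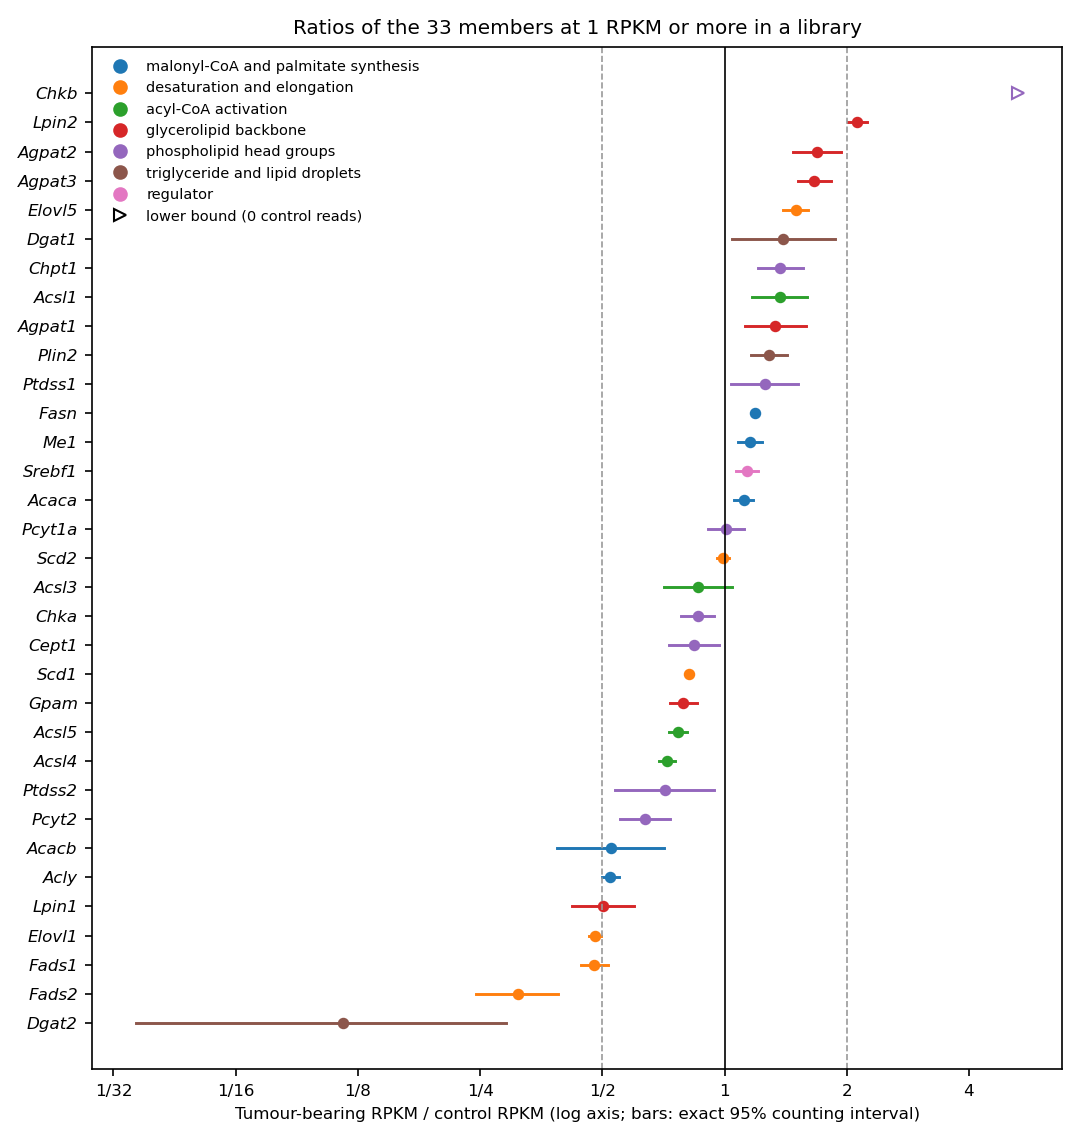
Direct ratio of tumour-bearing to control RPKM for the members compared (log axis), with 95% counting intervals from recovered reads and lines at 1 and at 2-fold in each direction. Chkb, marked as a lower bound, is drawn without an interval at its ratio to a floor of 3 control reads. That ratio leaves out the counting error of its tumour-bearing reads, so it is not a strict bound. Lpin2 lies above 2-fold with its whole interval, and Elovl1, Fads2 and Dgat2 lie below it with theirs.

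In the head group branch, 1 of 8 compared members passed the rule, on few reads. Chka, the choline kinase that starts phosphatidylcholine synthesis, was at 67.2 and 57.8 RPKM, 1.16-fold lower (1.06 to 1.28). Pcyt1a, the rate-limiting cytidylyl transferase of that branch, was at 28.2 and 28.5 RPKM, 1.01-fold higher (0.912 to 1.12), and its sign turns under other scalings. Chpt1, which adds phosphocholine to diacylglycerol, was at 24.4 and 33.5 RPKM, 1.37-fold higher (1.21 to 1.56). Cept1 carries out the same step with choline or ethanolamine, and was at 28.6 and 24.0 RPKM, 1.19-fold lower (1.03 to 1.37). Chpt1 to Cept1 shifted 1.63-fold (1.35 to 1.97), so the more abundant of the pair was Cept1 in the control and Chpt1 in the tumour-bearing library. Exons of both overlap genes on the opposite strand, Sycp3 for Chpt1 and Dennd2d for Cept1. Sycp3 was near 0 in both libraries and Dennd2d was at 14.6 and 14.7 RPKM.

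Pcyt2, Ptdss1 and Ptdss2, of the ethanolamine and serine branches, were within 2-fold. Pcyt2, the cytidylyl transferase for phosphatidylethanolamine, was at 50.001 and 31.8 RPKM, 1.57-fold lower (1.37 to 1.81). The ratio of Pcyt1a to Pcyt2 shifted 1.59-fold (1.34 to 1.89). Phosphatidylserine is made by exchange of head groups. Ptdss1, which uses phosphatidylcholine for this, was at 10.8 and 13.6 RPKM, 1.26-fold higher (1.04 to 1.52). Ptdss2, which uses phosphatidylethanolamine, was at 10.8 and 7.69 RPKM, 1.402-fold lower (1.06 to 1.86). Chkb, the second choline kinase, had 0 reads in the control and 16 (1.53 RPKM) after tumour injection. With a floor of 3 reads in place of the 0 control reads, its ratio was 5.28, a value that leaves out the counting error of the 16 reads. Of the 50-base stretches of Chkb, 77.7% also occur in Gm44502, an overlapping gene on the same strand that neither table lists, so its reads are uncertain. Pcyt1b was at 0.4998 and 0.723 RPKM, on 13 and 19 reads. The 9 genes summed to 221 and 199 RPKM.

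**Figure D3:**
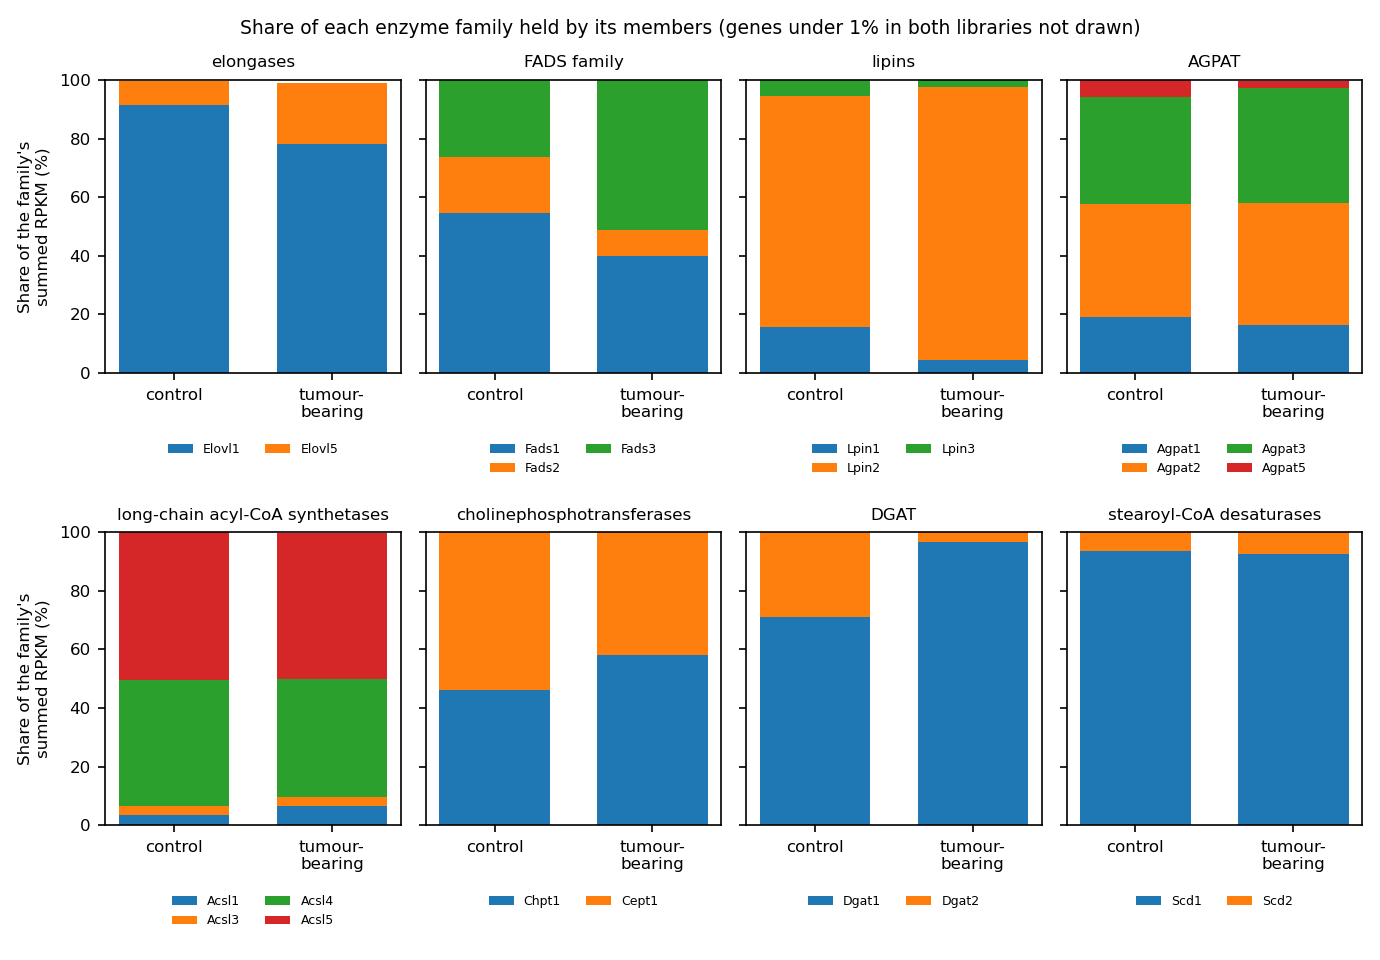
Share (%) of each enzyme family's summed RPKM held by its genes in the control and the tumour-bearing library, with genes under 1% in both libraries not drawn. Fads3 goes from 26.3% to 51.2% of the FADS family and Lpin2 from 79.0% to 93.2% of the lipins, while Scd1 stays above 90% of its family.

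In triglyceride synthesis, Dgat2 was lower and Dgat1 within 2-fold. Both catalyse the last step, which adds the third acyl chain to diacylglycerol. Dgat1 was at 8.76 and 12.2 RPKM, 1.396-fold higher (1.04 to 1.87). Dgat2 was at 3.58 and 0.412 RPKM, 8.68-fold lower (3.45 to 28.1), a difference that rests on 43 and 5 reads. Dgat1 held 71.0% and 96.7% of the pair. Plin2, a coat protein of lipid droplets, was at 67.2 and 86.4 RPKM, 1.28-fold higher (1.16 to 1.42). The transcription factor gene Srebf1, whose SREBP-1 protein activates many of these genes, was at 77.7 and 88.3 RPKM, 1.14-fold higher (1.07 to 1.21).

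Other genes of the pathway showed the same near balance. Of 111 further pathway genes, 104 were listed and 90 compared, of which 10 were at least 2-fold higher and 7 lower, with a median log2 ratio of -0.01. Those counts stand against 9.38% and 6.53% of all genes, which is near their own share. Of the 10, Pemt, Mboat2, Mogat1 and Cideb passed the filter through the tumour-bearing library alone, the first 3 with 0 control reads. In acetyl-CoA supply, Aacs, which makes acetoacetyl-CoA for lipid synthesis, was at 19.5 and 5.73 RPKM, 3.4-fold lower (2.71 to 4.3), while Pgd, at 119 and 135 RPKM, Slc25a1, at 65.02 and 51.1, and Idh1, at 61.2 and 37.6, were within 2-fold. Tecr and Hacd3, of the elongation cycle, were within it too, at 143 and 97.8 RPKM and at 87.3 and 62.2. Of the regulators, 1 was higher and 2 lower of 20. Insig1, which retains SREBP in the endoplasmic reticulum and is itself an SREBP target, was at 108 and 49.3 RPKM, 2.2-fold lower (2.01 to 2.41). Mid1ip1, which promotes the polymerisation of acetyl-CoA carboxylase, was at 264 and 90.2 RPKM, 2.92-fold lower (2.72 to 3.14). Rxra, the partner receptor of the liver X and PPAR receptors, was higher, at 11.1 and 24.9 RPKM. Cebpa, a transcription factor of fat and lung epithelium, was at 237 and 141 RPKM, within 2-fold, and Srebf2, the cholesterol-directed SREBP gene, was at 79.6 and 63.7 RPKM.

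Among genes that remodel and carry phospholipid, 4 were higher and 1 lower of 24, and among those of droplets and lipolysis 4 and 1 of 12, beside the 9.38% and 6.53% of all genes. With so few genes, and with 4 of the 8 higher calls passing the filter through 1 library, these counts are not read further. Prdx6, a peroxiredoxin with phospholipase activity that takes part in surfactant turnover, was at 252 and 788 RPKM, 3.13-fold higher (3.004 to 3.26). Pla2g1b, a secreted phospholipase, was at 171 and 51.8 RPKM, 3.31-fold lower (2.76 to 3.99). Lpcat1, which makes the dipalmitoyl phosphatidylcholine of surfactant, was at 787 and 682 RPKM, and Abca3, the lamellar body lipid transporter, at 389 and 308, both within 2-fold. Of the fatty acid carriers and thioesterases, Fabp5 was at 287 and 138 RPKM and Acot7 at 449 and 190, and both were lower by the rule. Cd36, a fatty acid receptor, was at 351 and 321 RPKM. At the droplet, Pnpla2, adipose triglyceride lipase, was at 114 and 228 RPKM, 2.0006-fold higher (1.89 to 2.12), and at 0.99 on the log2(RPKM + 1) scale it just missed the rule. Fitm2, which helps droplets bud, was at 16.9 and 46.7 RPKM, and Lipe, hormone-sensitive lipase, at 6.23 and 14.2, both higher. Hilpda, an inhibitor of triglyceride lipolysis, was lower, at 11.6 and 2.83 RPKM. Mboat1, a lysophospholipid acyltransferase, and Fabp4, a fatty acid binding protein of fat, endothelium and macrophages, were higher, at 2.28 and 5.61 RPKM and at 1.45 and 13.2 RPKM.

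**Figure D4:**
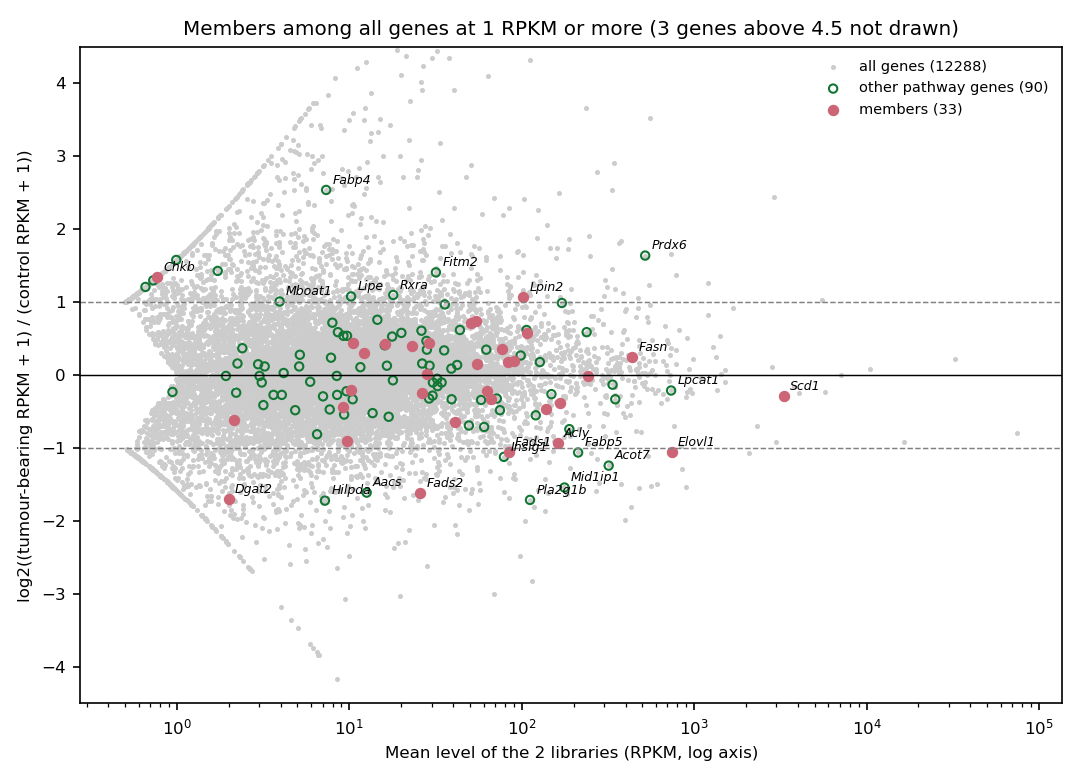
Log2 ratio of tumour-bearing to control (RPKM + 1) against the mean level of each of the 12288 genes compared, with the 33 compared members and 90 other pathway genes marked and dashed lines at 2-fold. The marked genes lie on both sides of 0, and Elovl1, Fads1, Fads2, Dgat2, Lpin2 and Chkb lie outside the lines.

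Markers of cell types also differed between the libraries. The 12 alveolar type 2 markers were abundant in both. They summed to 153420 and 103540 RPKM (30.02% and 21.1% of all RPKM), with 1 marker higher and 2 lower by the rule. Sftpc itself was at 94903 and 54968 RPKM. Higher by the rule were 7 of 10 alveolar type 1 markers (summed RPKM 1608 and 2632), 8 of 11 compared fibroblast markers (248 and 778, a list that includes Plin2) and 9 of 11 endothelial markers (29.3 and 149). Over all genes compared, 9.38% were higher. Of the fibroblast markers, Pdgfra, Pdgfrb and Lum passed the filter through the tumour-bearing library alone. So did Cldn5, Vwf, Gpihbp1 and Emcn of the endothelial ones. Such genes had to differ and lend no support to these counts. The macrophage markers summed to 17.2 and 60.1 RPKM, with 4 of 12 at 0 in both libraries. Of the 6 compared, 3 were higher (Cd68, Fabp4 and C1qb) and 1 lower (Chil3). Both C1qb and Chil3 passed the filter through 1 library alone. Ptprc, which encodes the CD45 excluded in the sort, was at 0.404 and 0.0667 RPKM. Of the 10 adipocyte markers, Adipoq, Lep, Plin1, Retn, Cfd and Pck1 were at 0 in both. The list summed to 7.42 and 15.6 RPKM, mostly Lipe, the 1 marker compared, which was higher. Of those too low to compare, Plin4 had 0 and 30 reads, Adrb3 3 and 6, and Cidec 9 and 0. The 6 club cell markers summed to 32182 and 36503 RPKM, with 1 higher and 1 lower, and the 6 ciliated cell markers to 506 and 381 RPKM, all within 2-fold. The part of these differences in the lower Elovl1, Fads1, Fads2 and Acly and in the higher Lpin2 was not tested. In such bulk RNA, fewer cells of a type and less RNA per cell cannot be told apart.

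The positions of the genes were uneven over the chromosomes. On chromosome 19 lie 7 of them (19.4%), against 3.55% of the genes compared: Chka, Fads1, Fads2, Scd1, Scd2, Gpam and Acsl5. All 7 had a ratio below 1, from Scd2, at 1.01-fold lower with an interval that includes 1, to Fads2, at 3.23-fold lower. Over all genes compared, 5676 of 12288 had a log2 ratio below 0, and the other genes of the chromosome were not summarised. The 7 include the neighbours Fads1 and Fads2 and the paralogs Scd1 and Scd2, so they need not be independent. Their common direction was noticed after the values were seen and was not tested. On chromosome 11 lie 5 (13.9%), against 8.41%: Srebf1, Acaca, Acly, Pcyt2 and Fasn, of which Acly and Pcyt2 were below 1 and the other 3 above it.

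Levels between genes rest on the transcript length used in the RPKM, which the annotation behind the tables set. The implied length came within 50 bases of one of the gene's own GENCODE M21 transcripts for 26 of the 36 members, and equal to one for 7. The widest gaps were those of Acsl5 (3167 bases, nearest transcript 4243), Fads2 (1508 and 879) and Chpt1 (3239 and 3708). Family shares, and the order of Chpt1 and Cept1 in each library, rest on these lengths. Ratios of 1 gene between the libraries do not depend on the length. Besides the overlaps named above, exons of further members overlap other genes. On the opposite strand, Elovl1 overlaps Cdc20 by 53 bases, Acsl5 overlaps Zdhhc6 by 404 and Pcyt1a overlaps Slc51a by 567. Cdc20 was at 5.85 and 2.59 RPKM, Zdhhc6 at 15.8 and 22.0, and Slc51a at 0 in both. On the same strand, Acsl3 overlaps Utp14b, at 2.33 and 1.25 RPKM, by 244 bases. These are examples and not the full set. Stretches common to other genes also touch the levels of Acaca, of which 55.4% of 50-base stretches occur in Gm5182, and of Me1 (26.5%). Neither Gm5182 nor Gm7049, the main match of Me1, is listed in the tables.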

How the data were processed

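RNA from 1 control and 1 tumour-bearing sort was compared. Per the file headers, the authors deposited RPKM by GeneID and symbol, in 1 table for each library. Per the labels' protocols, mRNA was enriched on oligo(dT) beads and fragmented before random-hexamer priming, and libraries were amplified by PCR. Per the submitters' processing notes, reads were trimmed with Trimmomatic and mm10 was used. For the versions, aligner, counter, annotation and strand setting, the labels and files name none.

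The deposited RPKM were compared without further scaling. The filter was 1 RPKM in at least 1 library, the pseudocount 1 RPKM and the size rule 2-fold. Whole reads were recovered from the RPKM: library totals were those at which the implied gene lengths came out whole, and the descending order of rows settled multiples. Reads were recovered for 15099 of 15113 genes (99.9%). The totals are estimates of this work. Recovered reads gave 95% exact intervals for single genes, and approximate ones, normal on the log scale, for shifts in the ratio of 2 genes. PCR reads without molecular identifiers are not independent molecules, so the intervals cover counting error only. A ratio to the floor of 3 reads carries no interval.

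Members and lists were chosen with earlier results of these data known. All 36 members could be named; other pathway genes could be named when at least 2-fold different at 5 RPKM or more, or among the 3 highest of a list, while Srebf2, Agpat5, the genes that overlap or resemble a member, and the genes that passed the filter through 1 library were named outside this rule, after values were seen. The promoter windows and motif shares came from RefSeq (GRCm38.p6), and common stretches and exon overlaps from GENCODE M21. Python 3.11.15, pandas 2.3.3, numpy 2.4.6, scipy 1.17.1 and matplotlib 3.10.9 were used. Alternatives changed the scaling, pseudocount, filter and fold.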

Additional observations from a re-analysis of the deposited data

How the results depend on the processing

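With 1 library per group, no library could be left out. No paired analysis was possible because each group held 1 library. The 2 higher members became 1 with upper-quartile scaling (7.83% of all genes), with a pseudocount of 5 (3.01%) and with a filter of 5 RPKM (7.95%). They were 4 at 1.5-fold (19.4%) and 0 at 4-fold (1.66%). The 4 lower members were 8 at 1.5-fold (16.1%), 0 at 4-fold (0.61%), 5 with upper-quartile scaling (7.58%), and 3 with a pseudocount of 5 (1.55%) or a filter of 5 (4.85%). Counting intervals lay wholly past 2-fold for 2 members above (6.28%), Lpin2 and Chkb, and 3 below (3.73%), Elovl1, Fads2 and Dgat2, without Fads1. Chkb had 0 control reads, so its interval has a lower limit only. Both Chkb and Dgat2 passed the filter through 1 library alone and lend no support to these counts. The median log2 ratio ran from -0.12 to 0.00. Trimmed-mean scaling, centring on the median of all genes, a pseudocount of 0.1, no filter and recovered reads with 0.5 added each gave 2 and 4. In that order, the shares of all genes were 8.7% and 6.91%, 8.35% and 7.19%, 12.5% and 10.1%, 7.63% and 5.31%, and 12.8% and 10.4%. The background thus moved between settings while the member counts stayed. No alternative reversed a call. Depth limits Dgat2, Chkb, Agpat4, Elovl6 and Pcyt1b.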
